A study of Mus musculus with 20 samples.

Results

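The comparison described here is the size of the deprivation response in knockout against wild-type neurons: how far each gene moved when oxygen and glucose were withdrawn, and whether it moved as far in neurons that lack the circular RNA ciRS-7. For each gene and culture the response was the log2 CPM (the log2 of the read count scaled to library size) under deprivation minus that in normoxia, taken between the libraries that share a genotype label and a replicate number. The 5 knockout (KO) responses were then set against the 5 wild-type (WT) responses. This was possible for 14097 genes, those listed in both deposited tables that compare deprivation with normoxia, of 14700 genes in any of the 4 tables. A further 278 genes were listed only in the KO table and 138 only in the WT table, and these were not compared. All 20 libraries of the series enter the comparison.

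The cells were mouse cortical neurons prepared at embryonic day 15 and kept for 7 days in culture. In normoxia (N) the medium held glucose at 25 mM and pyruvate at 0.2 mM, and under oxygen and glucose deprivation (OGD), a culture model of ischemia, neither was added and oxygen was at 1% for 12 h, with 5% CO2 and 37 °C for both. The genotypes were WT and ciRS-7 KO, the strain label of all samples is C57BL/6N-Cdr1asem1Nikr, and each genotype in each condition (N_WT, N_KO, OGD_WT, OGD_KO) gave 5 libraries of total RNA. The labels name biological replicates and a batch (1, 2, 3.1, 3.2 or 3.3) for each culture, but not whether 1 culture came from 1 animal or from pooled embryos, and p-values measure the spread between these cultures.

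ciRS-7 is a circular RNA made from the Cdr1as locus and abundant in neurons. It carries many sites for the microRNA miR-7, and with the long noncoding RNA Cyrano, which directs miR-7 to degradation, it forms a network that sets miR-7 levels in the brain. When oxygen falls, the transcription factor HIF is stabilised and raises genes for glucose uptake, glycolysis, angiogenesis and oxygen sensing. Loss of nutrients engages the integrated stress response through ATF4, and calcium entry raises immediate early genes such as Fos.

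The miR-7 family is shown because it is what ciRS-7 binds and what joins the reported target genes below. The mature forms in RefSeq (GRCm38.p6) are given 5′ to 3′ with the seed, bases 2 to 8, in capitals. miR-7a-5p comes from chr13:58392841-58392863 on the minus strand and from chr7:78888295-78888317 on the plus strand, and miR-7b-5p from chr17:56243017-56243040 on the plus strand.
mmu-miR-7a-5p: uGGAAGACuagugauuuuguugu
mmu-miR-7b-5p: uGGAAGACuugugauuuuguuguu
Both forms share the seed. The copy on chromosome 13 lies within Hnrnpk (chr13:58391142-58403343). Hnrnpk, which encodes an RNA-binding protein, had a response of 0.43 in WT and 0.48 in KO on the log2 scale.

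The targeted locus checks the genotype labels. Cdr1as was at 6.58, 6.31, 6.45, 6.65 and 6.53 log2 CPM in the 5 N_WT libraries and at 6.96, 5.69, 6.52, 6.90 and 6.52 in the 5 OGD_WT libraries. In N_KO it was at 0.46, -0.25, 0.04, 0.83 and 0.50, and in OGD_KO at -0.79, 0.39, 0.53, 0.58 and 0.96. Every KO library lay far below every WT library, with 2 to 16 reads against 545 to 1912. The response of Cdr1as was 0.02 ± 0.23 (SE, n = 5) in WT and 0.02 ± 0.23 (SE, n = 5) in KO. The KO value comes from so few reads that a change of the remaining signal was not detectable at this depth. Every SE given here is that of the limma fit, which pools the spread of both genotypes, so it is the same for KO and WT.

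The libraries held between 7070556 and 16654071 recovered reads over the genes compared. The mitochondrial ribosomal RNA mt-Rnr2 took 10.1% to 16.4% of the reads in N and 13.8% to 32.0% under OGD, the highest in OGD_KO replicate 5 and the lowest in OGD_WT replicate 2. Of 17 neuron markers all 17 were measured, summing to 7110 to 8330 CPM in N_WT, 7560 to 7770 in N_KO, 4610 to 7400 in OGD_WT and 4990 to 6490 in OGD_KO. The cultures also held glia. The 12 measured astrocyte markers of 14 summed to 1160 to 1960 CPM in N and 1950 to 2880 under OGD, and the 10 oligodendrocyte lineage markers of 12 to 238 to 459 and 314 to 542. Of 13 vascular and fibroblast markers only Kdr, Pdgfrb and Dcn were measured. In such bulk samples fewer cells of a type and less RNA per cell cannot be told apart.

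No gene responded differently in KO and WT neurons at a Benjamini-Hochberg adjusted p under 0.05 in limma, which is 0 of 14097 genes (0%). An unadjusted limma p under 0.05 was found for 107 genes (0.759%), of which 73 had a higher response in KO (0.518%) and 34 a lower one (0.241%). With no true difference a share of 0.05 would be expected on average, so small p-values were fewer than that. The reason was not tested, and the count of 0 and the widths of the intervals are to be read with this limit. The responses of the 5 KO and the 5 WT cultures did not overlap for 13 genes (0.0922%), 10 with KO above WT (0.0709%) and 3 with KO below (0.0213%). If the cultures were exchangeable, a share of 0.00794 would be expected on average, so these genes too were fewer than that. Leaving out 1 culture at a time, the count of 107 ran from 79 (without WT culture 3) to 244 (without WT culture 5), with 213 without KO culture 5 and 177 without KO culture 2. The smallest unadjusted p was 0.00195, for the pseudogene Gm2223, whose adjusted p was 1. With library weights, which give WT culture 3 a weight of 11.6 and the other cultures 0.301 to 2.99, 115 genes were called, and within the batches that hold both genotypes 10 were, an alternative chosen after seeing the data. Of those 10, 9 share at least 78.25% of their 50-base words with other genes, and the exception was Btg2, an antiproliferative early response gene (difference -1.43 within batches). The other 23 alternatives called 0.

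Deprivation itself moved a large share of genes in both genotypes. In the same fit limma called 5533 genes in WT (39.2%), 2695 up (19.1%) and 2838 down (20.1%), and 5319 in KO (37.7%), 2750 up (19.5%) and 2569 down (18.2%). Called in both genotypes were 4526 genes (32.1%), and all 4526 moved in the same direction. Genes called in 1 genotype alone are not shown to differ, since the difference itself was called for none.

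**Figure D1:**
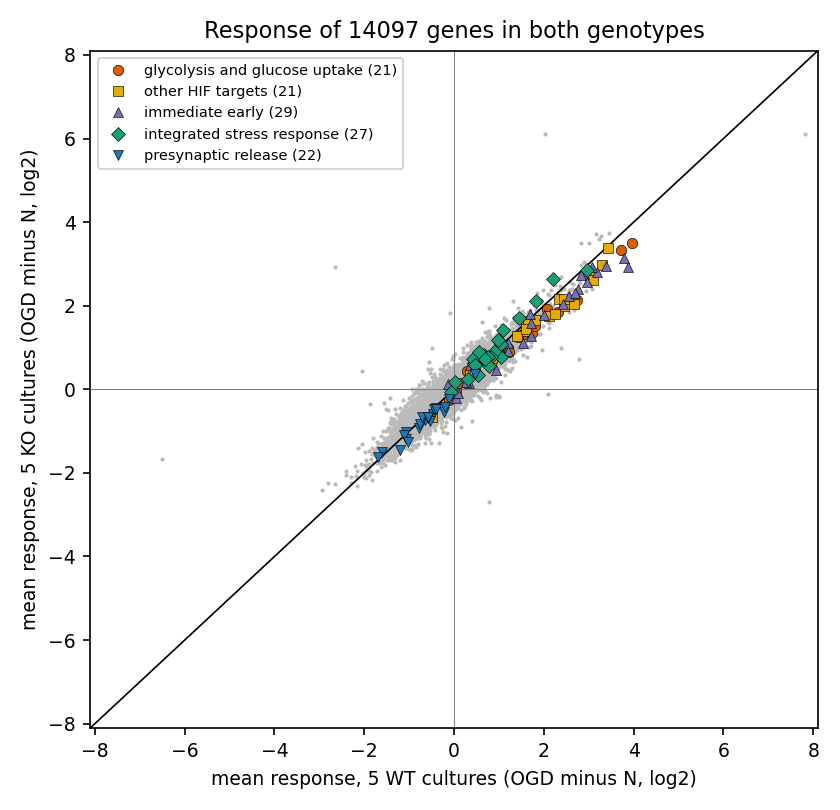
Each point is 1 of 14097 genes, with the mean response (OGD minus N, log2) of the 5 WT cultures on the x axis and that of the 5 KO cultures on the y axis, the line of equality drawn, and the members of 5 lists in colour. The genes lie along the line, and most hypoxia and immediate early genes with large responses lie a little below it, at differences that the test did not call.

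The precision sets what this comparison could have shown. The median SE of a difference was 0.256 log2. The 95% interval of the difference lay within 1 log2 unit (a 2-fold difference of responses) of 0 for 12785 genes (90.7%), and within 0.5 log2 units for 1777 genes (12.6%). Of 1303 genes with a mean of 7 log2 CPM or more, 1240 (95.2%) had an interval within 1 log2 unit, against 605 of 1099 genes (55.0%) with a mean under 1. Differences of single genes smaller than the half-width of their interval (median 0.539 log2 units) were not detectable with these cultures. A difference of at least 1 log2 unit was fitted for 26 genes, none of them called.

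The overall size of the response was measured in each culture as the slope of its responses on the mean response of the 10 cultures over all genes, so that a culture with an average response has the value 1. It was 0.910, 0.913, 0.964, 0.903 and 1.203 in KO cultures 1 to 5 and 0.944, 1.171, 1.078, 1.055 and 0.857 in WT cultures 1 to 5. KO culture 5 had the largest value of all and WT culture 5 the smallest, so the groups overlapped over their whole range. The means were 0.979 ± 0.128 (SD, n = 5) in KO and 1.021 ± 0.122 (SD, n = 5) in WT, a difference of -0.04 (two-sided exact permutation p 0.571, or 0.960 adjusted over 6 size measures).

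The other 5 measures did not separate the groups beyond the spread of the cultures either. The median absolute response was 0.447 ± 0.085 log2 in KO and 0.451 ± 0.061 in WT (SD, n = 5 each, exact permutation p 0.960), and the SD of the response over genes was 0.738 ± 0.123 against 0.747 ± 0.071 (exact permutation p 0.913). The number of genes changed at least 2-fold in a culture ran from 1296 to 3600 in KO and from 1457 to 2942 in WT, with means of 2124 and 2174 (exact permutation p 0.937). All 6 had an adjusted p of 0.960, where 5 against 5 cultures allow an unadjusted p as small as 0.00794.

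**Figure D2:**
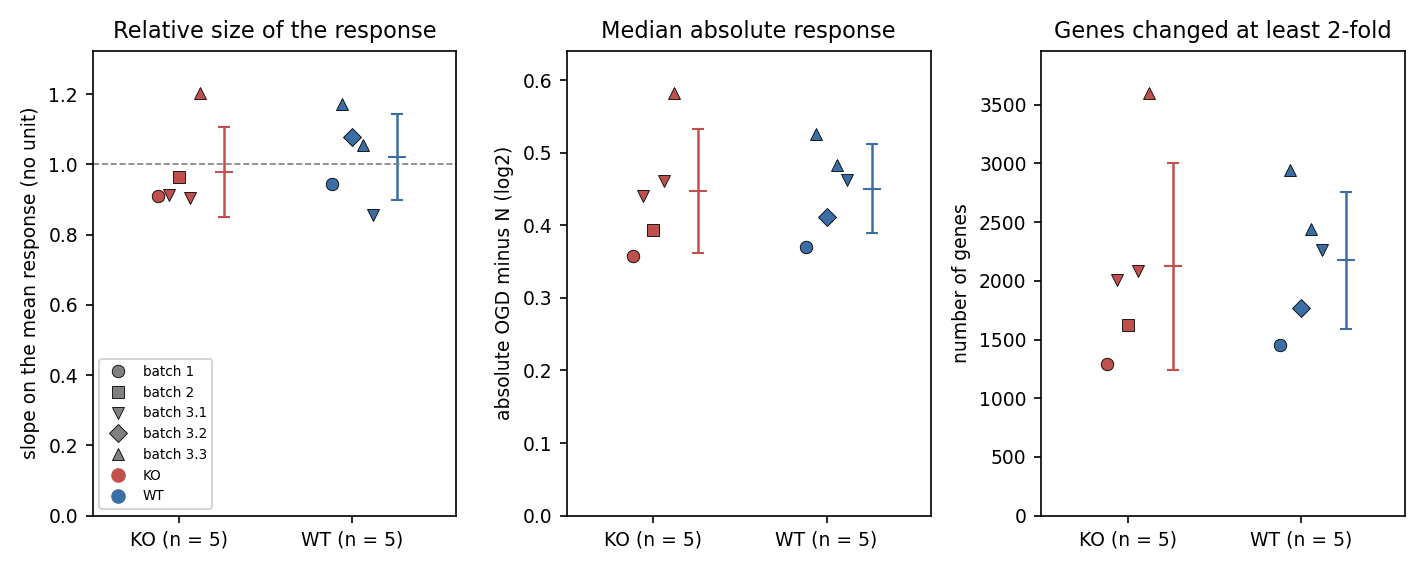
Relative size of the response (slope, no unit), median absolute response (log2) and number of genes changed at least 2-fold in each of 5 KO and 5 WT cultures. Symbols give the batch label and bars the mean and SD. The KO and WT points overlap in each panel, and the highest of each genotype belongs to batch 3.3.

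The size of the response also followed the batch label. The 3 cultures of batch 3.3 had relative sizes of 1.203 (KO 5), 1.171 (WT 2) and 1.055 (WT 4), and the 3 cultures of batch 3.1 had 0.913 (KO 2), 0.903 (KO 4) and 0.857 (WT 5). Within the batches that hold both genotypes, KO minus WT was -0.03 in batch 1 (1 culture each), 0.05 in batch 3.1 and 0.09 in batch 3.3. Batch 2 held only KO culture 3 and batch 3.2 only WT culture 3, so batch and genotype cannot be told apart there. The sign of the pooled difference was therefore not that of batches 3.1 and 3.3.

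Cultures also differed in how far their genes scattered. For genes with a mean of at least 5 log2 CPM, the SD of a culture's responses about its genotype mean was 0.155 and 0.164 in KO cultures 1 and 3 and 0.165 and 0.113 in WT cultures 1 and 3. It was 0.443, 0.458 and 0.660 in KO cultures 2, 4 and 5 and 0.418, 0.402 and 0.553 in WT cultures 2, 4 and 5. The 4 tight cultures are those of batches 1, 2 and 3.2, and the other 6 those of batches 3.1 and 3.3. Within batches 3.3 and 3.1 the deviations of the libraries from their group means nearly cancelled. Over the 6 libraries of batch 3.3 they averaged to an SD of 0.0295, where 0.138 would follow from independent deviations. Over the 6 of batch 3.1 they averaged to 0.0192 against 0.131, and over the 4 of batch 1 to 0.0187 against 0.0533. In batches 2 and 3.2, of 2 libraries each, less cancelled (0.0375 against 0.0639 and 0.0271 against 0.0445). Whether the reads had been adjusted for batch before deposit is not given in the sources used here, and its part in the results was not tested. A shift common to the N and OGD library of a culture drops out of the response, while opposed deviations add up in it. The deviations of same-numbered N and OGD libraries were mostly opposed, with r from -0.685 to 0.0382 in WT and from -0.796 to -0.0724 in KO. The most negative were those of WT culture 3 and KO culture 3, the only cultures of batches 3.2 and 2.

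Genes with large responses were looked at next, chosen by the average over all 10 cultures, which treats the genotypes alike. Of 633 genes with an average rise of at least 1 log2 unit, 399 (63%) had the smaller rise in KO, with a median difference of -0.06. Of 585 genes with an average fall of at least 1 log2 unit, 381 (65.1%) had the smaller fall in KO, with a median difference of 0.06. Over all genes the difference was positive for 7702 (54.6%) and negative for 6395 (45.4%), with a median of 0.02. Genes share cultures and are not independent, and per culture the mean response of the induced genes was 1.43 ± 0.14 in KO and 1.49 ± 0.19 in WT (SD, n = 5 each, exact permutation p 0.611), and that of the repressed genes -1.23 ± 0.17 and -1.31 ± 0.17 (exact permutation p 0.421).

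Levels before and after deprivation were close between genotypes. In the table that compares genotypes in normoxia, 552 of the induced genes averaged 3.55 ± 0.13 log2 CPM in N_KO and 3.54 ± 0.07 in N_WT (SD, n = 5 each). In the table that compares them under OGD, the 633 induced genes averaged 4.26 ± 0.04 in OGD_KO and 4.32 ± 0.14 in OGD_WT. The repressed genes averaged 4.25 ± 0.05 and 4.25 ± 0.09 in normoxia (585 genes) and 3.04 ± 0.14 and 2.99 ± 0.21 under OGD (527 genes). Each pair differed by less than the larger of its SDs. These tables were normalised separately, so levels are compared only within one.

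Glucose uptake and glycolysis genes rose in both genotypes, and their rise was smaller in KO by an amount within the spread of the cultures. Of 21 measured genes 15 were called up in WT and 15 in KO (19.1% and 19.5% over all genes), none down. None was called for the difference. The difference was negative for 18 of 21, with a median of -0.21 beside 0.02 over all genes. Per culture the mean of the list was 1.27, 0.57, 1.41, 0.99 and 1.58 in KO and 1.40, 2.11, 1.43, 1.85 and 0.09 in WT, a range in WT that spans the KO cultures. The lowest 3 values belong to the 3 cultures of batch 3.1, and KO minus WT was -0.14 within batch 1, 0.69 within batch 3.1 and -0.40 within batch 3.3. Without WT culture 5 the difference of list means moved from -0.21 to -0.54, and without WT culture 2 to -0.03.

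Slc2a1, which encodes the glucose transporter GLUT1 (chr4:119108711-119137983, mm10 as in GENCODE M21), had the largest response among the genes named here that share few reads with others. Its response was 3.72, 2.42, 4.07, 3.10 and 4.17 in KO cultures 1 to 5 and 3.85, 4.98, 4.01, 4.24 and 2.69 in WT cultures 1 to 5. The lowest and the highest of these lay in batches 3.1 and 3.3, and the genotypes overlapped. The rise was 3.50 ± 0.27 (SE, n = 5) in KO (limma adjusted p 1.3e-07) and 3.95 ± 0.27 in WT (limma adjusted p 2.56e-08), and the difference was -0.46 with a 95% interval from -1.26 to 0.34 (limma unadjusted p 0.241). It ran from -0.78 (without WT culture 5) to -0.19 (without KO culture 2) when 1 culture was left out.

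Hk2 encodes hexokinase 2, the enzyme that traps glucose in the cell (chr6:82725025-82774454). Its response was 3.47, 3.02, 3.53, 2.99 and 3.70 in KO and 4.08, 4.12, 3.77, 4.07 and 2.55 in WT. The WT cultures other than 5 all lay above the KO cultures, while WT culture 5 lay below all of them. The difference was -0.38 with a 95% interval from -0.98 to 0.23. It ran from -0.67 (without WT culture 5) to -0.28 (without WT culture 2) when 1 culture was left out. Slc16a3, a lactate exporter present at low levels, rose by 2.14 in KO and 2.73 in WT, a difference of -0.59 (95% interval from -1.24 to 0.07). Eno1 and Ldha, which encode enzymes of lower glycolysis, had differences of -0.37 and -0.29. Hk1 and Pfkm, constitutive forms of early glycolytic enzymes, did not pass the test in either genotype (responses of 0.04 and -0.04 in WT, -0.03 and -0.02 in KO).

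Other HIF targets followed the same pattern. Of 21 measured genes 17 were called up (19.1% in WT and 19.5% in KO over all genes) and 1 down in each genotype. None was called for the difference, and 19 had a negative difference (median -0.16). Per culture the list mean was 1.59, 0.91, 1.83, 1.10 and 2.45 in KO and 1.79, 2.57, 1.85, 2.33 and 0.42 in WT. Here too the cultures of batch 3.3 were highest and those of batch 3.1 lowest, in both genotypes. Leaving out WT culture 5 moved the difference of list means from -0.22 to -0.56, and leaving out WT culture 2 moved it to -0.02. It was -0.21 within batch 1, 0.59 within batch 3.1 and -0.00117 within batch 3.3.

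Vegfa, the main angiogenic growth factor, had responses of 2.67, 2.89, 2.94, 2.12 and 4.30 in KO and 2.97, 4.81, 3.22, 4.12 and 1.32 in WT. The difference was -0.31 with a 95% interval from -1.36 to 0.74. It ran from -0.80 (without WT culture 5) to 0.07 (without WT culture 2) when 1 culture was left out. The spread in WT shows how wide such an interval is for a gene that follows the batch. Egln3, a prolyl hydroxylase that marks HIF for degradation, rose by 2.03 in KO and 2.68 in WT (difference -0.65, 95% interval from -1.62 to 0.33). Its difference was -1.07 without WT culture 5 and -0.39 without KO culture 4. P4ha1, a collagen prolyl hydroxylase, rose by 2.75 and 3.07. Bhlhe40, a hypoxia-induced repressor, rose by 2.62 and 3.09. Adm, which encodes the vasodilator adrenomedullin, rose by 3.39 and 3.43.

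**Figure D3:**
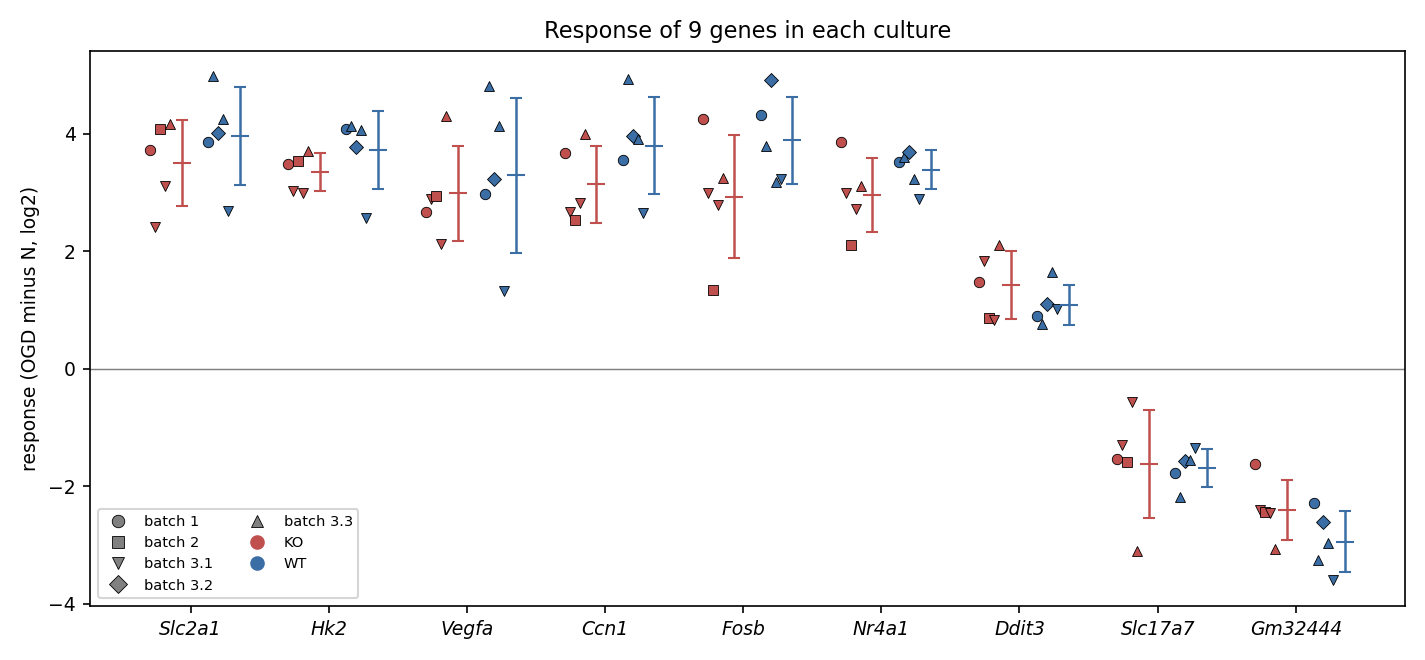
Response (OGD minus N, log2) of 9 genes in each of 5 KO and 5 WT cultures, with batch symbols and the mean and SD. For Slc2a1, Hk2, Vegfa and Ccn1 the lowest WT point is the culture of batch 3.1, and for each of the 9 genes the KO and WT cultures overlap.

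The letters of the hypoxia response core (ACGTG or GCGTG, searched on both strands in the 250 bases before each RefSeq gene start) were counted, because the HIF targets moved together. They stood in 276 of 481 windows of induced genes (57.4%), 265 of 529 windows of repressed genes (50.1%) and 6784 of 12026 windows of the other measured genes (56.4%), beside 12679 of 32851 windows in all (38.6%). The core overlaps the E-box letters CACGTG. The share in induced genes was close to that in the other measured genes. Each of the promoters of Slc2a1 and Hk2 held 2 cores, and the one nearer the gene start is printed on the gene's strand, 5′ to 3′, with the core in capitals, each in GRCm38.p6.
Slc2a1, chr4:119108697-119108726, plus strand: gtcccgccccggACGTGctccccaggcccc
Hk2, chr6:82774489-82774518, minus strand: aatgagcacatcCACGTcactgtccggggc
In Slc2a1 the printed core starts 36 bases before the RefSeq gene start and the other, on the opposite strand, 61 bases before it. In Hk2 both lie on the opposite strand, the printed one 52 and the other 226 bases before the start. A match describes the letters and not a bound site.

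Immediate early genes rose in both genotypes, and more of them had a smaller response in KO than in WT. Of 29 measured genes 22 were called up in WT and 21 in KO (19.1% and 19.5% over all genes), none down. The difference was negative for 25 of 29, with a median of -0.23, 0 were called over all genes and 1 had an unadjusted limma p under 0.05. Per culture the list mean was 1.89, 1.51, 1.24, 1.63 and 1.38 in KO and 1.86, 1.78, 1.87, 1.68 and 1.63 in WT. The KO cultures spread wider (1.53 ± 0.25, SD, n = 5) than the WT cultures (1.76 ± 0.11), and KO culture 1 lay above all WT cultures. Leaving out 1 culture at a time kept the difference of list means between -0.33 and -0.16. Within batches it was 0.02 in batch 1, -0.06 in batch 3.1 and -0.36 in batch 3.3, so the 2 smaller values lie in batches 1 and 3.1.

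Fosb, an activity-induced partner of the JUN proteins, was the 1 gene of this list with an unadjusted p under 0.05. Its response was 4.25, 2.99, 1.34, 2.79 and 3.24 in KO and 4.31, 3.79, 4.91, 3.18 and 3.22 in WT. KO cultures 2, 3 and 4 lay below every WT culture, culture 3 by the most, and KO cultures 1 and 5 lay within the WT range. The difference was -0.96 with a 95% interval from -1.87 to -0.04 (limma unadjusted p 0.0409, adjusted p 1). Without KO culture 3 it was -0.56. Fosb had 6 to 37 reads per library in normoxia, so the response rests on low counts at its base.

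Ccn1, which encodes a secreted matrix protein and is a target of serum response factor, rose by 3.13 ± 0.26 (SE, n = 5) in KO and 3.79 ± 0.26 in WT. The difference was -0.66 with a 95% interval from -1.42 to 0.10, and it was -0.38 without WT culture 2 and -0.95 without WT culture 5. Nr4a1, an orphan nuclear receptor, rose by 2.95 and 3.39. Klf4, a zinc finger factor that is also a reported miR-7 target, rose by 2.57 and 2.96, and Fos by 2.41 and 2.77. Jun, Maff and Dusp1, a stress kinase phosphatase gene, had differences of -0.14, -0.08 and -0.12. The positive exceptions were Ier5 (0.27), Dusp5 (0.23), Ier2 (0.12) and Jund (0.02).

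Genes of the integrated stress response rose in both genotypes, with differences that were mostly positive and within the spread of the cultures. Of 27 measured genes 17 were called up in WT and 20 in KO (19.1% and 19.5% over all genes), none down. The difference was positive for 19, with a median of 0.10. No difference was called. The list mean was 1.10, 1.05, 0.93, 1.15 and 0.59 in KO and 0.89, 0.92, 0.73, 0.88 and 0.97 in WT, so that 3 KO cultures lay above all WT cultures and 1 below all of them. Without KO culture 5 the difference of list means moved from 0.09 to 0.18, and without KO culture 4 to 0.04. Within batch 3.3 it was -0.31, against 0.20 in batch 1 and 0.13 in batch 3.1.

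Ddit3 encodes CHOP, a factor of stress-induced death, and had responses of 1.48, 1.84, 0.86, 0.83 and 2.10 in KO and 0.90, 0.77, 1.10, 1.65 and 1.01 in WT. The difference was 0.34 with a 95% interval from -0.23 to 0.91, and it was 0.17 without KO culture 5 and 0.49 without KO culture 4. Slc7a11, the cystine importer, rose by 2.12 in KO and 1.82 in WT, and Eif4ebp1, a brake on cap-dependent translation, by 1.71 and 1.46. Nupr1, a stress-induced chromatin protein gene at low levels, rose by 2.63 and 2.20. Atf3 rose by 2.85 and 2.96, and Atf4 itself by 0.88 and 0.89. The transcript of the factor that gives the list its name thus had nearly equal responses, with a 95% interval of the difference from -0.57 to 0.54.

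The ER unfolded protein response list moved little in either genotype. Of 19 measured genes 5 were called up and 2 down in WT (19.1% and 20.1% over all genes). In KO 4 were called up and 1 down (19.5% and 18.2%). The difference was positive for 16, with a median of 0.06 and a range from -0.17 to 0.24. All 19 intervals lay within 1 log2 unit of 0, beside 90.7% over all genes. The difference of list means was 0.08, moving to -0.02 without WT culture 2 and to 0.17 without WT culture 5. Hspa5 (BiP), the main ER chaperone, rose by 0.57 in KO and 0.47 in WT. Xbp1 fell by 0.55 and 0.62.

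Synaptic genes fell in both genotypes. Of 22 presynaptic release genes 16 were called down and 1 up in WT (20.1% and 19.1% over all genes). In KO 20 were called down and 0 up (18.2% and 19.5%). The difference was negative for 17, with a median of -0.09, and none was called, so the larger count in KO is not shown to be a larger effect. The difference of list means was -0.09, or -0.03 without WT culture 4 and -0.15 without KO culture 2. Slc17a7 encodes the vesicular glutamate transporter VGLUT1. Its response was -1.55, -1.31, -1.59, -0.58 and -3.10 in KO and -1.78, -2.19, -1.57, -1.56 and -1.34 in WT. KO cultures 4 and 5 lay above and below all the others, and the difference was 0.07 with a 95% interval from -0.66 to 0.79. It was -0.20 without KO culture 4 and 0.44 without KO culture 5. Snap25, a fusion protein gene, had the most negative difference of the list (-0.31, 95% interval from -0.93 to 0.30).

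Glutamate receptor genes were split evenly, 12 with a positive and 12 with a negative difference (median 0.01). In WT 8 of 24 were called down and 2 up (20.1% and 19.1% over all genes). In KO 9 were called down and 2 up (18.2% and 19.5%). Grm2, a presynaptic metabotropic receptor gene, fell by 1.37 in KO and 1.55 in WT, and Grin1, the obligatory NMDA receptor subunit, by 0.98 and 0.79. For 23 of 24 the 95% interval lay within 1 log2 unit of 0, beside 90.7% of all genes. Neuron markers had a median difference of 0.00117, with 9 of 17 called down in WT and 11 in KO.

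**Figure D4:**
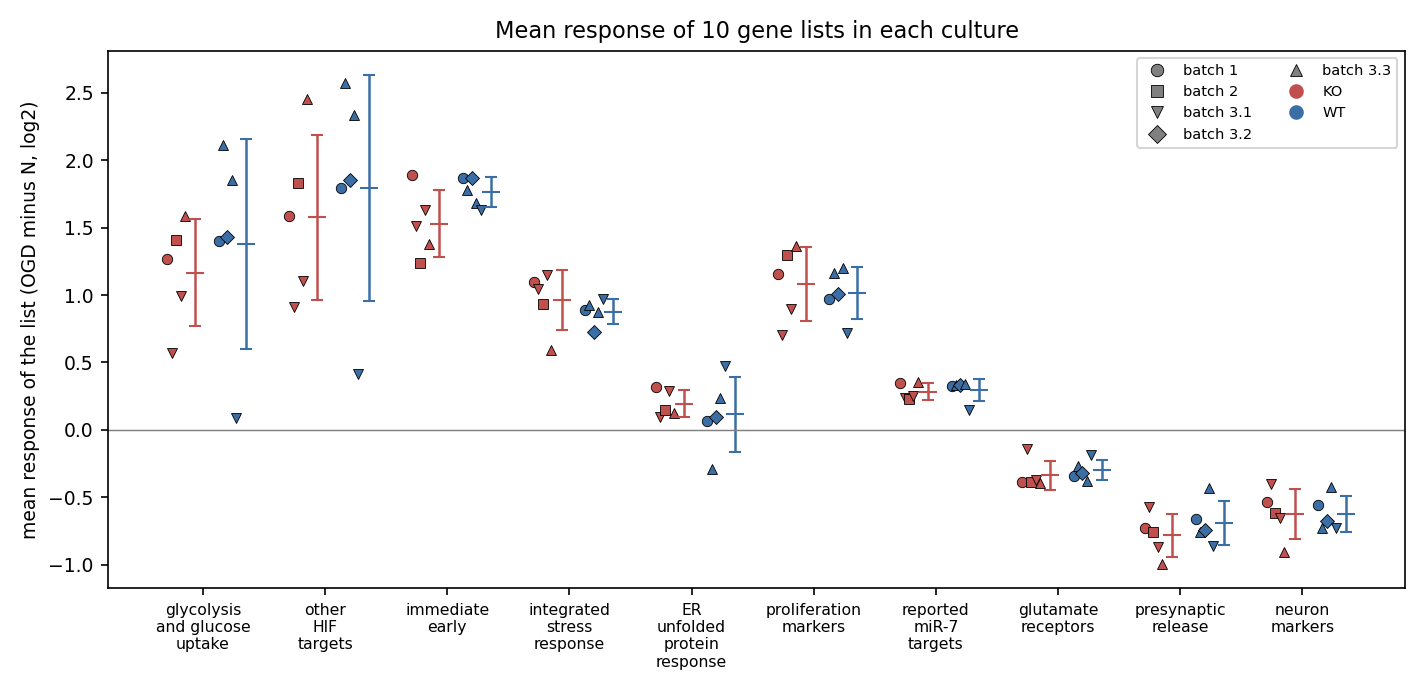
Mean response (OGD minus N, log2) of 10 gene lists in each of 5 KO and 5 WT cultures, with batch symbols and the mean and SD. The hypoxia lists spread most, with batch 3.3 high and batch 3.1 low in both genotypes, and the immediate early list has lower KO than WT points except for KO culture 1 and KO culture 4.

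Reported miR-7 targets, the genes that ciRS-7 would act on through miR-7, showed no common shift. Of 25 measured targets 6 were called up and 3 down in WT, and 6 up and 2 down in KO, with 0 called for the difference. Over all genes 19.1% were called up and 20.1% down in WT, and 19.5% up and 18.2% down in KO. The difference was positive for 14 and negative for 11, with a median of 0.02, equal to that of all genes to 2 decimals. The list mean was 0.28 ± 0.06 (SD, n = 5) in KO and 0.30 ± 0.08 in WT. Egfr, a growth factor receptor gene, rose by 0.97 in KO and 0.99 in WT (95% interval of the difference from -0.50 to 0.47). For 24 of 25 the interval lay within 1 log2 unit of 0, beside 90.7% of all genes.

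Cyrano, listed as Oip5os1, fell in both genotypes. Its response was -0.93, -1.20, -0.98, -0.40 and -2.10 in KO and -0.76, -1.34, -1.21, -0.69 and -1.57 in WT. KO cultures 4 and 5 were the highest and the lowest of the 10. The fall was 1.12 in KO and 1.11 in WT, a difference of -0.01 with a 95% interval from -0.61 to 0.58, which became -0.19 without KO culture 4 and 0.23 without KO culture 5. Cdr1os, the overlapping transcript of the ciRS-7 locus, had a response of -0.33 in KO and -0.21 in WT and did not pass the test in either. Cdr1os had 279 to 689 reads per N_KO library and 108 to 167 per N_WT library, where Cdr1as had 5 to 16 and 700 to 1365. Under OGD Cdr1os had 104 to 421 reads in KO and 84 to 165 in WT. The 2 counts thus did not fall together in KO. The counting is not stated to use strand, so how far reads of one transcript were counted for the other is not known.

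No difference was called for other stress genes. Hmox1, which encodes the haem-degrading NRF2 target, rose by 2.04 in KO and 2.03 in WT (95% interval of the difference from -0.51 to 0.54). Hspa1a and Hspa1b, copies of the inducible HSP70 gene that share 60.4% and 62.3% of their 50-base words with other genes and so are uncertain, rose by 2.56 and 2.98 in KO and by 2.59 and 2.82 in WT. The death genes Bbc3 (PUMA) and Bcl2l11 (BIM) rose by 1.15 and 1.02 in KO and 1.26 and 1.28 in WT. Fas, the death receptor, rose by 3.33 and 3.68. Of 13 p53 target and death genes 7 were called up and 1 down in each genotype. Over all genes these shares were 19.1% and 20.1% in WT and 19.5% and 18.2% in KO.

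Proliferation markers rose in both genotypes, with all 13 of 13 called up in each (19.1% in WT and 19.5% in KO over all genes). The difference was positive for 11, with a median of 0.07. Every interval lay within 1 log2 unit of 0, beside 90.7% of all genes. Ccnb1, the mitotic cyclin B1, rose by 1.58 ± 0.15 (SE, n = 5) in KO and 1.49 ± 0.15 in WT. Of 12 astrocyte markers 8 were called up in WT and 5 in KO (19.1% and 19.5% over all genes), with a median difference of -0.04. Slc1a3, the glial glutamate transporter GLAST, rose by 0.95 in KO and 1.08 in WT. Cholesterol synthesis genes had a median difference of -0.12, with 15 of 20 negative. Of the 20, 6 were called down in WT and 7 in KO (20.1% and 18.2% over all genes). Their difference of list means was -0.11, or -0.01 without WT culture 4 and -0.19 without WT culture 1.

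Mitochondrially encoded transcripts had a positive difference for 11 of 13 (median 0.11), and 0 were called for the difference. Of the 13, 6 were called up in WT and 5 in KO (19.1% and 19.5% over all genes). The list mean was 0.88, 0.36, 0.67, -0.22 and 1.34 in KO and 0.32, 0.10, 0.69, 0.43 and 0.79 in WT. KO culture 5 was highest, the culture in whose OGD library mt-Rnr2 also took the largest share of reads, and KO culture 4 lowest. Without KO culture 5 the difference of list means moved from 0.14 to -0.05, and without KO culture 4 to 0.34. mt-Atp6, an ATP synthase subunit, rose by 1.28 in KO and 0.91 in WT. Of its 50-base words 99.5% also occur in other genes, so its value is uncertain. For mt-Nd4l and mt-Nd3 these shares were 98.8% and 98.0%, and the rest of the list was not checked.

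The largest falls were also shared. Gm32444, an unclassified transcript (chr3:118537021-118540531), had responses of -1.63, -2.41, -2.44, -2.46 and -3.07 in KO and -2.29, -3.25, -2.61, -2.97 and -3.60 in WT. KO culture 1 was the highest and WT culture 5 the lowest, the groups overlapped, and the difference was 0.55 with a 95% interval from -0.06 to 1.15 (0.35 without KO culture 1). Rxfp1, a relaxin receptor gene, fell by 2.23 in KO and 2.81 in WT, and Adcyap1, which encodes the neuropeptide PACAP, by 2.26 and 2.66. Mal2, a membrane trafficking gene, fell by 2.05 and 2.42. Sema3e, Sprn and Necab1, named by the same rule, had differences of 0.05, 0.01 and -0.16.

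Next come the genes with the smallest p of the difference, a description of the end of a ranking. Among those whose reads are not shared with other genes, the transcription factor gene Zbtb3 (chr19:8802555-8804846) had responses of 0.04, -0.59, 0.18, 0.05 and -0.92 in KO and -0.40, -1.27, -1.68, -1.37 and -1.01 in WT. KO cultures 2 and 5 lay below WT culture 1, the only WT culture within the KO range. The difference was 0.90 with a 95% interval from 0.27 to 1.53 (limma unadjusted p 0.00792, adjusted p 1), from 8 to 84 reads per library. With library weights it was 1.52 and passed the adjusted threshold.

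Slc2a6, a lysosomal sugar transporter gene, had responses of -0.30, -0.62, -0.59, 0.07 and 0.61 in KO and -1.09, -1.24, -0.99, -0.91 and -0.44 in WT. Only WT culture 5 overlapped with the KO cultures, and the difference was 0.77 with a 95% interval from 0.20 to 1.34 (limma unadjusted p 0.0114). Arg2, the mitochondrial arginase gene, had responses of -0.33, -0.28, -0.74, -0.42 and -0.21 in KO and -1.17, -0.42, -1.02, -1.31 and -1.41 in WT, a difference of 0.67 (95% interval from 0.13 to 1.21). Slc66a1, a lysosomal amino acid exporter gene, had a difference of 0.67 (95% interval from 0.12 to 1.22). In the other direction, Dock5, a Rac activator gene, had a response of -1.29 in KO and -0.52 in WT, and Capn6, a calpain-like gene, rose by 1.02 and 1.67 (difference -0.65, 95% interval from -1.22 to -0.09). These genes were picked for their small p, so their intervals are no independent evidence.

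Several genes at the ends of this ranking cannot be assigned safely. Gm25679, Gm26444, Gm22634, Gm23804 and Gm22068 are annotated as small nuclear RNAs, and 100% of the 50-base words of each occur in other genes. Gm25679 had responses of 3.70, 3.30, 11.03, 9.89 and 2.58 in KO and 2.64, 3.48, 0.68, 2.07 and 1.28 in WT, and its reads per N_KO library ran from 0 to 1003. H2ac14, matched through an older symbol to an unprocessed pseudogene with 93.1% shared words, had responses from -0.73 to 7.70 in KO and from -6.47 to 3.72 in WT. Gm14440 and Gm2223 also share 100% of their words. Fitted differences of such copies are values of uncertain origin.

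**Figure D5:**
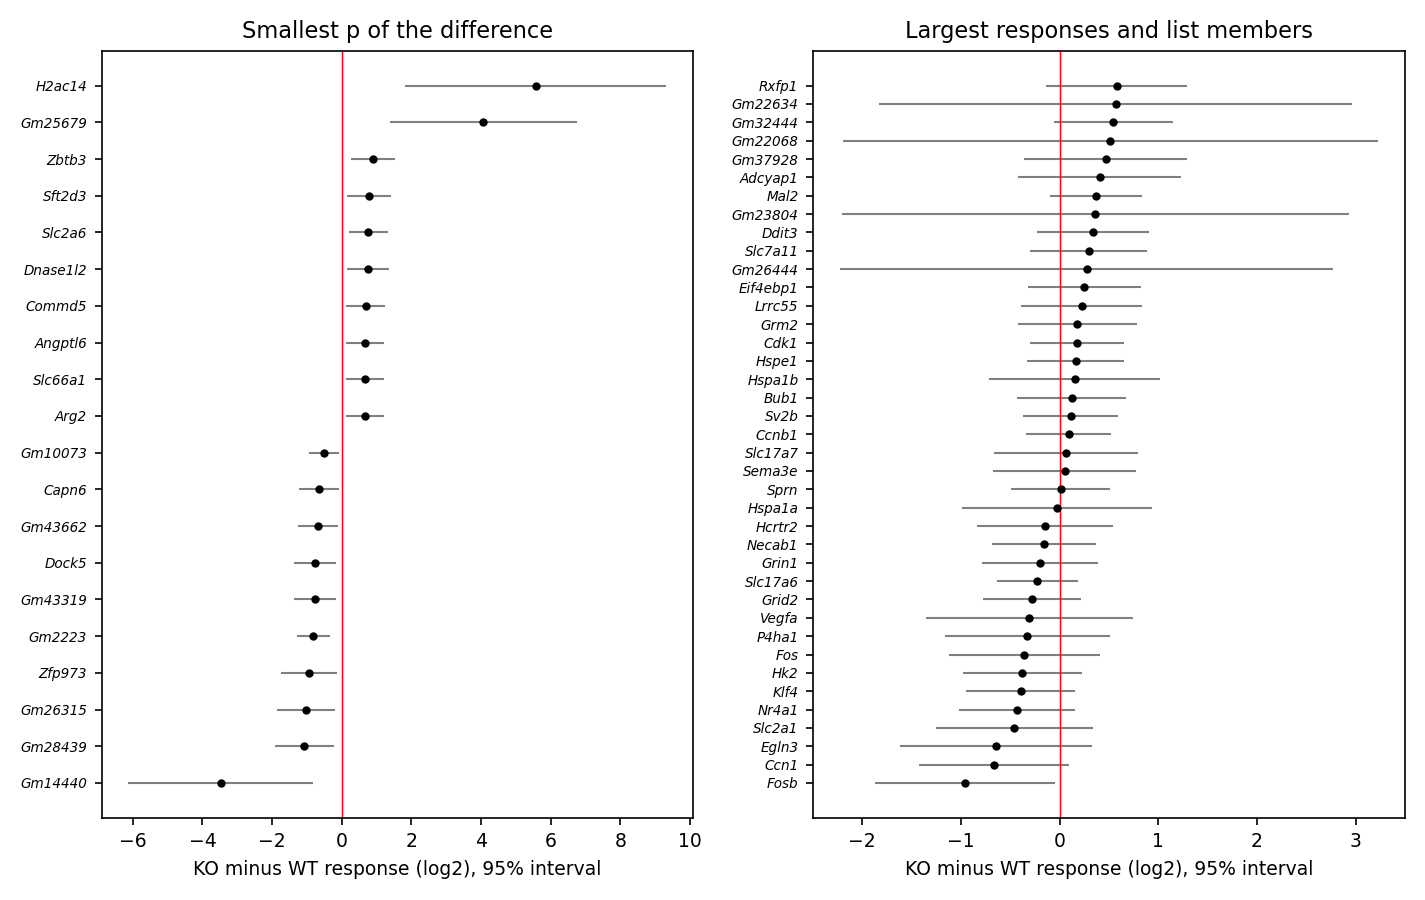
Difference of the response, KO minus WT (log2), with its 95% interval, for the 20 genes with the smallest p in either direction (left) and for 39 genes with the largest responses or from 7 lists (right). The intervals on the left exclude 0 because the genes were chosen for it, and 38 of the 39 on the right include 0, the exception being Fosb.

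The 13 genes whose KO and WT cultures did not overlap were named after their values were seen. They are fewer than exchangeable cultures would give on average. Those with KO above WT were Gm37962, Dmrtb1, St6galnac4, Snord17, Kcnab3, Yipf1, BC005624, Alg3, Gm49322 and Gal3st3, and those with KO below WT were Gm2223, Tesk2 and Gm10073. St6galnac4, a sialyltransferase gene, had responses of -0.68, -0.63, -0.44, -0.24 and -0.77 in KO and -1.15, -1.13, -0.79, -0.998 and -1.14 in WT. Its lowest KO value lay just above its highest WT value. The mean response was -0.55 in KO and -1.04 in WT (difference 0.49, limma unadjusted p 0.0295, adjusted p 1).

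The likeness of cultures covered similar ranges within and between genotypes. Pearson's r between the responses of 2 cultures over the 14097 genes ran from 0.409 to 0.774 (median 0.630) for 10 KO pairs, from 0.376 to 0.803 (median 0.688) for 10 WT pairs, and from 0.481 to 0.804 (median 0.662) for 25 pairs of a KO and a WT culture. These are descriptions over genes that share libraries. WT culture 5 had the lowest median r with the other cultures (0.545) and WT culture 3 the highest (0.743).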

How the data were processed

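The authors deposited log2 CPM values per gene and library in 4 tables, 1 per comparison, as the table names and values show. The genome build is mm10 per the submitters' processing notes. The aligner, counting, strand setting, gene filter and scaling are not given in the sources used here. In each gene and group of 5 the extreme values had been clipped toward their neighbour (weights 0.6 and 0.4), an inference from the values that no label states. It was undone, after which at least 99.9% of values matched whole reads within 0.05 reads, for genes of up to 500 reads, against 45.5% to 92.8% as deposited.

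Responses (OGD minus N) of 10 cultures were fitted in R 4.3.3 by limma 3.58.1, using lmFit and then eBayes with the mean level as trend, two-sided, Benjamini-Hochberg adjusted over 14097 genes. The SE of a response uses a spread pooled over both genotypes and moderated across genes, and is not the spread of 1 genotype alone. The code was tested on simulated data. Size measures were compared by exact permutation over 252 splits, two-sided. Pairing comes from the labels, since N and OGD libraries of a number share the genotype label and batch. Their deviations from the group means did not go together: r ran from -0.685 to 0.0382 in WT and from -0.796 to -0.0724 in KO. The labels do not say whether KO and WT cultures of the same number share a source, and these were not paired.

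The genes compared and the 20 lists were chosen with earlier results of these data known. Genes were named by a rule: with a mean of at least 1 log2 CPM in N and in OGD, the 10 smallest p of the difference per direction, the 10 largest average rises and falls, per list the 2 largest responses and the smallest p, the ciRS-7 network genes and the defining markers of other cells. Further list members named for background were chosen after their values were seen. Lists are described by counts and medians, with no test. Alternatives numbered 24 planned and 1 added after seeing the data. Words of 50 bases were compared over GENCODE M21 transcripts.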

Additional observations from a re-analysis of the deposited data

Results flagged for a closer look

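Of 90 groups of 5 cultures examined, 10 had 1 culture far from the other 4 by its gap relative to the range of the group. Chance gives about 4.5, but the groups share cultures and some genes share reads, so an excess is not shown. KO culture 5 stood apart in 8 of the 10. Its relative size of the response was 1.203 against 0.903 to 0.964 in the other KO cultures, and its mean response of the repressed genes was -1.52 against -1.19 to -1.10. In the same culture Hcrtr2, an orexin receptor gene, had a response of -3.63 against -2.18 to -1.76, and Lrrc55 one of -2.47 against -1.92 to -1.72. Of the 5 small nuclear RNA copies named here, 4 also stood out there. The response of Gm26444 was 10.18 against 0.90 to 2.71, and that of Gm22634 was 9.96 against 0.88 to 2.83. That of Gm23804 was 10.17 against 0.54 to 2.80, and that of Gm22068 was 10.78 against 0.42 to 2.39. The other copy, Gm25679, had its lowest KO response in this culture (2.58) and its highest in KO cultures 3 and 4 (11.03 and 9.89). In WT culture 1 the response of Gm14440 was 5.75 against -1.12 to -0.04. In WT culture 5 the response of Hk2 was 2.555 against 3.77 to 4.12. For Gm26444, Gm22634, Gm23804 and Gm22068 the N library of KO culture 5 was at the floor of -1.21 log2 CPM, with 0 reads. Its OGD library was at 8.75 to 9.57 log2 CPM for them, the highest of the OGD_KO libraries. The OGD library of KO culture 5 had 7492203 reads, 32.0% of them from mt-Rnr2, and the part of this in the other values was not tested.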

How the results depend on the processing

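No difference between KO and WT responses was called in 23 of 25 alternatives. Library weights called 115 genes, and the fit within batches that hold both genotypes, added after seeing the data, called 10. The response in WT was called for 3505 genes in the cultures of batch 3 alone and for 10398 with library weights, and that in KO for 2137 and 8049. The count at an unadjusted p under 0.05 was 347 with the values as deposited, 70 for genes with a mean of at least 1 log2 CPM, 2000 with library weights, 173 with eBayes without a trend, 177 within batches, and 177, 213 and 244 without KO culture 2, KO culture 5 and WT culture 5. The cause was not tested, except that leaving out low genes leaves fewer to test.

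Without the pairing of N and OGD libraries (no replicate block) 6259 genes were called in WT, 6067 in KO and 0 for the difference, which had an unadjusted p under 0.05 for 192 genes. With the replicate block as a random effect these were 5521, 5344 and 0, and no other call of a count changed.

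The size measures had no call to lose, and their sign was unstable. In the cultures of batch 3 alone KO minus WT was 0.0246 for the SD over genes, 0.0238 for the median absolute response and 211.25 for the genes changed at least 2-fold. Within batches it was 0.0289, 0.0207 and 207 for these, 0.0418 for the relative size, 0.0440 for induced and -0.0267 for repressed genes. Leaving out 1 culture at a time, the difference ran from -0.0611 to 0.0187 for the SD, from -0.0374 to 0.0186 for the median absolute response, from -419.65 to 156.35 for the genes changed at least 2-fold, from -0.161 to 0.00279 for induced genes, from 0.0281 to 0.147 for repressed genes and from -0.105 to -0.00356 for the relative size. The sign of the first 3 turned without KO culture 1 (156.35 genes), KO culture 3 (73.35), WT culture 2 (141.3) or WT culture 4 (16.05), and that of induced genes without KO culture 4.

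Of single genes, library weights brought the difference past the threshold for Gm25679, H2ac14, Zbtb3 (1.52), Sft2d3, Angptl6, Gm14440 and Gm10073. The share of genes with a positive difference was 54.6%, but 47.3% with median-of-ratios scaling and 47.4% after subtracting each culture's median. With 5 cultures a genotype, the median half-width of the 95% interval was 0.539 log2 units. Smaller differences of a typical gene were therefore out of reach. For 1777 of 14097 genes the interval lay within 0.5 log2 units of 0.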
